A study of Mus musculus with 6 samples.

Results

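The genes described here are those of the cytosolic ribosomal proteins, the protein part of the ribosome that translates nuclear mRNAs. They were taken from the deposited expression table by symbol: every symbol made of Rpl or Rps and a number, together with *Rplp0*, *Rplp1*, *Rplp2* and *Rpsa*, without the ribosomal protein kinases (*Rps6k*) and without symbols ending in -ps and a number, which name pseudogenes. This gave 87 of the 52089 symbols in the table. Of these, 43 were proteins of the large subunit, 31 of the small subunit and 3 of the stalk, so that 77 were ribosomal protein genes. The other members were 9 paralogues of ribosomal proteins (*Rpl10l*, *Rpl22l1*, *Rpl36al*, *Rpl39l*, *Rpl3l*, *Rpl7l1*, *Rps12l2*, *Rps27l* and *Rps4y2*) and *Rps19bp1*, a protein that binds *Rps19* and is not part of the ribosome. The symbol rule does not take in some genes, such as *Fau* and *Rack1* (listed as *Gnb2l1*), which code for ribosomal proteins under other names.

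RNA came from primary brite adipocytes, the thermogenic fat cells that develop from precursors in white adipose tissue. Precursors of the stromal-vascular fraction of inguinal white adipose tissue of male 129SvEv mice, aged 5 to 6 weeks, underwent 2 days of induction and 1 day of differentiation with rosiglitazone. Both groups carried the same genotype and received 50 nM of a locked nucleic acid Gapmer antisense oligonucleotide. In the *Ctcflos* KD group it was ASO1, directed against transcript 1 of the long noncoding RNA *Ctcflos*, and in the NC ctrl group a nontargeting control. Each group has 3 libraries of total RNA harvested 24 h after transfection. No source used here states that the 3 libraries of a group came from separate cultures or animals, so that p-values measure the spread between these libraries, which may be technical. One oligonucleotide was sequenced in this table, and a change due to the loss of *Ctcflos* cannot be told apart from a change due to that oligonucleotide itself.

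A ribosome holds 1 copy of almost every ribosomal protein, and cells keep the subunits balanced by controlling the synthesis, import and turnover of these proteins. Most ribosomal protein mRNAs of mammals begin with a C followed by a tract of pyrimidines, the 5′ terminal oligopyrimidine (TOP) tract, through which the kinase mTOR controls their translation as a group. The genes are short and strongly transcribed, many carry small nucleolar RNAs (snoRNAs) within their introns, and reverse transcription of their mRNAs has left a large number of processed pseudogenes in the genome.

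Runs of pyrimidines were counted around the transcription starts that RefSeq annotates on GRCm38.p6, which holds 77 promoters of 65 members. In 28 of these 77 promoters (36.4%), the 15 bases on each side of the start held a run of at least 8 C or T on the strand of the gene, against 12% of 32851 promoters of all genes. The motif CTTTC or CTTTT, which can lie within such a run, was found within 25 bases of the start in 29.9% of the member promoters and 11.5% of all promoters. Over the whole promoter of 300 bases and on both strands, CCGGAAG, the core that ETS factors such as GABP bind, was present in 35.1% of member promoters against 8.86% of all. AAGATGG, the core of the YY1 motif, was present in 15.6% against 6.34%. These matches describe the sequence and not binding. The starts used in these cells were not measured, so that a short run does not show that an mRNA lacks a TOP tract. The windows of 30 bases around the start are shown 5′ to 3′ for members whose values are described below, with the longest run of C and T in capitals. On the plus strand, they lie at chr9:64173372-64173401 for *Rpl4*, chr7:109519180-109519209 for *Rpl27a*, chr2:32961697-32961726 for *Rpl12*, chr7:141447636-141447665 for *Rplp2* and chr5:107900513-107900542 for *Rpl5*, the last shown as a member with a short run. On the minus strand, they lie at chr7:45128731-45128760 for *Rpl13a*, chr14:18270972-18271001 for *Rpl15*, chr7:118116133-118116162 for *Rps15a* and chr10:128626492-128626521 for *Rps26*.
Rpl4: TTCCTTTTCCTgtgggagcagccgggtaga
Rpl13a: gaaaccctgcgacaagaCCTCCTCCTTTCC
Rpl27a: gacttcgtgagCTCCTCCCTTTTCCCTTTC
Rpl12: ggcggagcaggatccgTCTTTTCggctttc
Rpl15: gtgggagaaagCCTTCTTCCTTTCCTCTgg
Rps15a: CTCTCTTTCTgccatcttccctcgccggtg
Rps26: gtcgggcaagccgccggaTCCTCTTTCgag
Rplp2: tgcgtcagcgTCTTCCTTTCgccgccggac
Rpl5: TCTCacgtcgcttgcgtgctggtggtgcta

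The targeted transcript was measured first. *Ctcflos* (*1300015D01Rik*) had 0.0969, 0.0705 and 0.210 RPKM in the *Ctcflos* KD libraries 1 to 3 and 0.748, 0.751 and 0.840 in the controls. RPKM are the reads on a transcript divided by its length in kb and by the mapped reads of the library in mio. The groups did not overlap, and the KD mean was 16.1% of the control mean (log2 difference -0.66 ± 0.08 (SE), adjusted p = 0.0254 in a limma fit without a filter on low values). In the fit blocked by replicate number, the call was lost (limma, adjusted p = 0.113). It was also lost without any 1 library other than *Ctcflos* KD 3 (limma, adjusted p between 0.0619 and 0.130), with differences of -0.68 to -0.63. Read depth, recovered from the steps between low values, was 60.7 to 75.5 mio reads in *Ctcflos* KD and 61.9 to 78.9 mio in the controls. Every brite adipocyte marker of a list of 8 was listed in every library, *Fabp4* between 2829 and 4243 RPKM. Their summed level was 3975 to 5319 RPKM in *Ctcflos* KD and 5632 to 6291 in the controls, and 2 of them (*Cebpa* and *Ucp1*) passed the test as lower. Of the 8 differences 0 were positive, with a median of -0.48. At an unadjusted p under 0.05 (limma), 7 of the 8 were lower, beside 18.9% of all genes tested. The endothelial markers summed to at most 1.35 RPKM in any library, and of the 6 macrophage and leukocyte markers 5 were listed and 2 tested. *Cd68* rose (1.05 ± 0.25), while *Lyz2* had the opposite sign and did not pass the test (-1.45 ± 0.71, adjusted p = 0.167). Under the filter, *Csf1r* had means of 1.30 RPKM in *Ctcflos* KD and 0.514 in the controls, *Tyrobp* 0.305 and 0.514, and *Ptprc* at most 0.0486 in any library. The summed level of this list was 6.66 to 16.9 RPKM in *Ctcflos* KD and 8.23 to 28.2 in the controls. Of 5 tested markers of progenitors or fibroblasts 1, *Pdgfra*, fell by 0.69 ± 0.12. Of the 4 smooth muscle and pericyte markers 1 was tested and 0 were called, and their summed level was 17.8 to 49.0 RPKM in *Ctcflos* KD and 32.7 to 84.9 in the controls. The part of these differences in cell composition or state in the values below was not tested, and fewer cells of a type cannot be told apart from less RNA per cell.

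Of the 87 members, 72 had a mean of at least 1 RPKM and were tested, and 15 did not pass this filter. Most ribosomal protein mRNAs had slightly higher values in *Ctcflos* KD, and the difference passed the test for 1 gene. The log2 difference between *Ctcflos* KD and NC ctrl was positive in 60 of the 72 tested members and negative in 12. Its median was 0.16, with an interquartile range of 0.05 to 0.26 and extremes of -0.30 and 0.60. All differences are on the log2(RPKM + 1) scale, on which changes of low genes come out too small. Over all 11701 genes tested the median was 0.03. One member, *Rpl13a*, was called higher and 0 were called lower at an adjusted p under 0.05 (limma, Benjamini-Hochberg over all genes), while 11.5% of all genes were called higher and 12.4% lower. At an unadjusted p under 0.05 there were 11 members, all of them higher, a share of 15.3% beside 20% of all genes higher and 18.9% lower. In 18 members every KD library lay above every control library, a share of 25% that is close to the background of 22.9%. In 1 tested member, *Rps26*, every KD library lay below every control, against 21.9% of all genes.

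**Figure D1:**
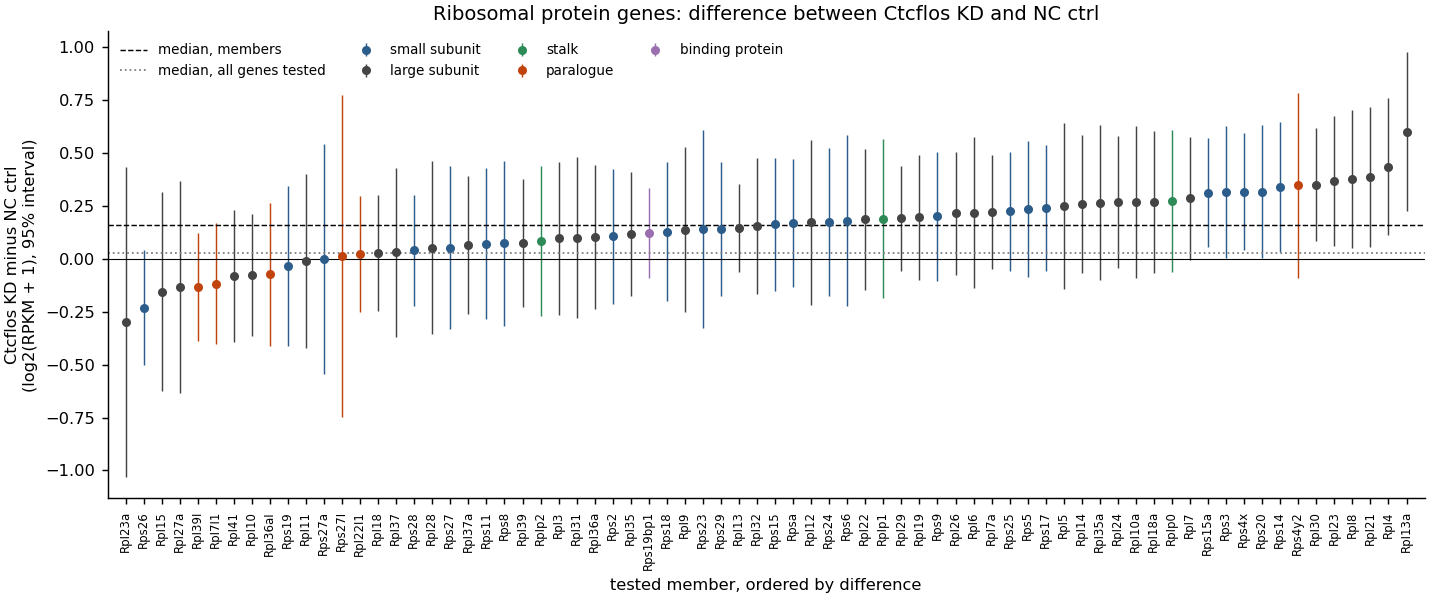
Difference between *Ctcflos* KD and NC ctrl (log2(RPKM + 1)) of the 72 tested members, ordered by size and coloured by kind; points are estimates, bars 95% intervals from limma, the dashed line the members' median (0.16) and the dotted line the median over all 11701 genes tested (0.03). Most points lie above 0, and most intervals include 0.

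The libraries of a group did not share a common level of these mRNAs. Relative to the mean of the 6 libraries, the median deviation over the 72 members was 0.04, 0.25 and -0.0009 in *Ctcflos* KD 1 to 3 and -0.20, -0.04 and -0.01 in the controls. *Ctcflos* KD 2 therefore lay highest and NC ctrl 1 lowest, while *Ctcflos* KD 3 and NC ctrl 3 lay next to each other. NC ctrl 1 held the lowest control value in 60 of the 72 members (83.3%), against 31.7% of all genes tested, and *Ctcflos* KD 2 the highest KD value in 58 members (80.6%), against 38.3% of all genes. For all genes the median deviation of each library stayed between -0.05 and 0.04. Without NC ctrl 1 the median difference of the members was 0.10 with 53 positive values, and without *Ctcflos* KD 2 it was 0.09 with 45 positive values. The RPKM summed over the 87 members came to 5201, 6411 and 5305 in *Ctcflos* KD and to 4678, 5164 and 5355 in the controls, so that the sums of the groups overlapped.

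**Figure D2:**
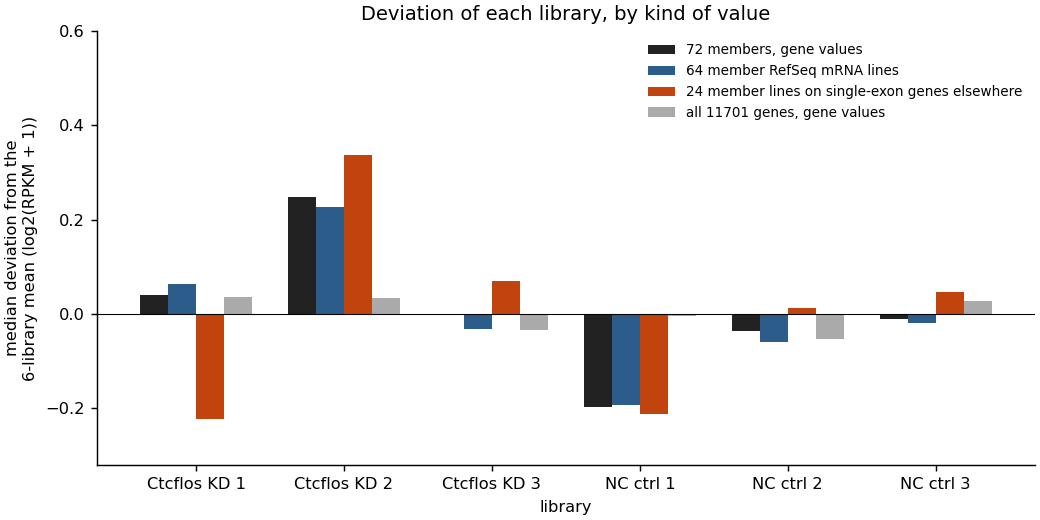
Median deviation of each library from the mean of the 6 libraries (log2(RPKM + 1)) for the 72 tested members, for 64 RefSeq mRNA lines of members, for 24 member lines that Gencode places on single-exon genes under another name (elsewhere), and for all 11701 genes. *Ctcflos* KD 2 stands highest and NC ctrl 1 lowest for the members, and *Ctcflos* KD 1 is low (-0.22) for the lines placed elsewhere.

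*Rpl13a*, a protein of the large subunit that is also known for a role in translational silencing outside the ribosome, had the highest difference. Its values were 30.4, 38.5 and 25.2 RPKM in *Ctcflos* KD 1 to 3 and 18.4, 20.9 and 21.0 in the controls. The groups did not overlap, with 31.4 ± 6.68 RPKM (SD, n = 3) against 20.1 ± 1.46 (n = 3), and the mRNA rose by 0.60 ± 0.16 (SE) on the log2 scale (adjusted p = 0.0333). In the fit blocked by replicate number, the adjusted p was 0.0593. The call was also lost without a filter on low values (limma, adjusted p = 0.0759). With the median over lines, the difference was 0.37 and was not called (limma, adjusted p = 0.114). When 1 library was left out in turn, the call was lost for every library but *Ctcflos* KD 3, with differences between 0.45 and 0.74. *Rpl13a* lies at 45125558 to 45128761 on chromosome 7 (GRCm38, minus strand) and hosts 4 snoRNAs, *Snord32a*, *Snord33*, *Snord34* and *Snord35a*. Its RefSeq mRNA line alone gave 62.1, 82.0 and 53.0 RPKM against 37.3, 41.9 and 43.6, again without overlap.

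Behind *Rpl13a* came 5 further proteins of the large subunit, none of which passed the test. *Rpl4* had 160.0, 195 and 156 RPKM in *Ctcflos* KD and 115, 130.5 and 131 in the controls. The groups did not overlap, and the difference of 0.43 ± 0.14 had an adjusted p of 0.0575. *Rpl4* hosts 5 snoRNAs, more than any other member named here. *Rpl21* had 14.2, 15.1 and 11.03 RPKM against 8.73, 10.8 and 10.5 (0.39 ± 0.14, adjusted p = 0.0854). *Rpl8*, whose mRNA shares almost no sequence with other genes, had 207, 238 and 183 RPKM against 150.2, 166 and 165 (0.38 ± 0.14, adjusted p = 0.0890). *Rpl23*, which together with *Rpl5* and *Rpl11* is known to bind *Mdm2*, had 9.59, 10.3 and 7.32 RPKM against 6.42, 6.76 and 7.11 (0.37 ± 0.13, adjusted p = 0.0812). In each of these genes the lowest KD library was *Ctcflos* KD 3, and it stood just above the highest control in *Rpl21* and *Rpl23*. *Rpl30* had 1.63, 1.93 and 2.28 RPKM against 1.11, 1.52 and 1.30 (0.35 ± 0.12, adjusted p = 0.0609). In *Rpl30*, *Ctcflos* KD 3 was the highest library instead.

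At the other end, *Rps26* was the one tested member whose KD libraries all lay below the controls. *Rps26*, a protein of the small subunit at the mRNA exit channel, had 38.7, 40.6 and 41.8 RPKM in *Ctcflos* KD and 44.3, 46.7 and 51.8 in the controls. The difference of -0.23 ± 0.12 did not pass the test (adjusted p = 0.181). The other low differences came from genes in which *Ctcflos* KD 1 alone stood apart. *Rpl23a* had 2.55 RPKM in *Ctcflos* KD 1 and between 6.49 and 7.87 in the other libraries (-0.30 ± 0.32, adjusted p = 0.510). *Rpl15* had 3.53 RPKM in *Ctcflos* KD 1 and 5.91 to 7.00 elsewhere (-0.16 ± 0.20, adjusted p = 0.597), and *Rpl27a* had 73.3 RPKM there and 100.6 to 129.8 elsewhere (-0.13 ± 0.22, adjusted p = 0.675). Without *Ctcflos* KD 1 the differences of these genes were 0.13, 0.10 and 0.11, that is, of the opposite sign. The remaining low differences were those of the paralogues *Rpl39l* and *Rpl7l1*, given below.

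**Figure D3:**
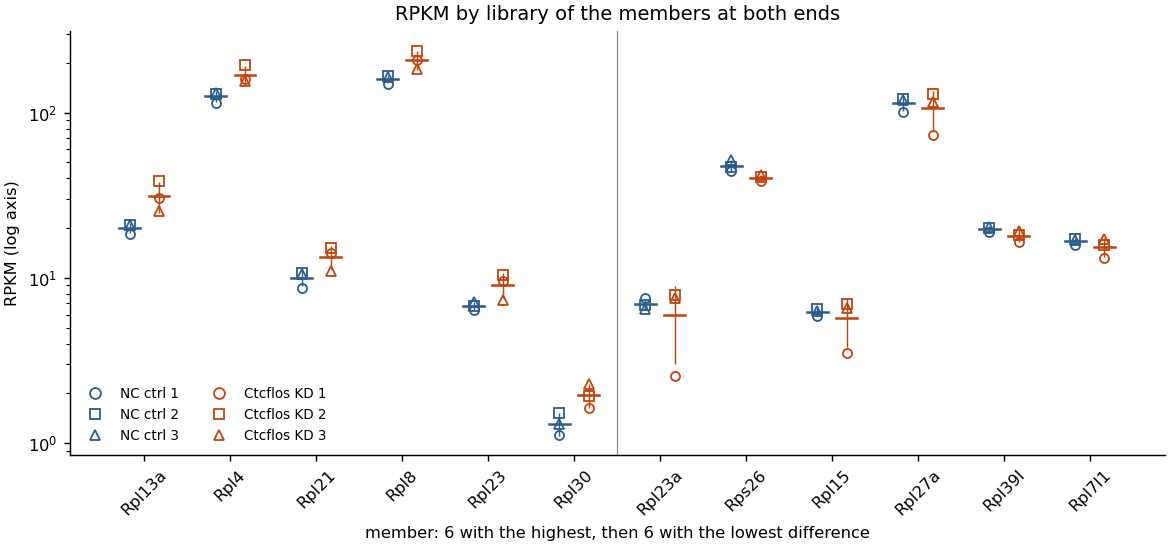
RPKM on a log axis in each library for the 6 tested members with the highest and the 6 with the lowest difference; horizontal bars are group means and vertical bars SD (n = 3). The groups do not overlap for the first 6 and for *Rps26*, and *Ctcflos* KD 1 stands apart in *Rpl23a*, *Rpl15* and *Rpl27a*.

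By subunit, the median difference was 0.17 over 24 tested small-subunit genes (21 positive) and 0.18 over 38 large-subunit genes (32 positive). The stalk proteins *Rplp0*, *Rplp1* and *Rplp2*, which recruit translation factors to the large subunit, were all positive and none was called. *Rplp0*, often used as a reference gene in qPCR, had 102, 115 and 89.7 RPKM in *Ctcflos* KD and 74.6, 88.8 and 89.2 in the controls (0.27 ± 0.14, adjusted p = 0.199) and its groups did not overlap, by a margin of under 1 RPKM. *Rplp1* had 255, 251 and 187 RPKM against 201, 182 and 220 (0.19 ± 0.16, adjusted p = 0.419). *Rplp2* had 61.7, 68.2 and 49.7 RPKM against 54.1, 51.6 and 62.5 (0.09 ± 0.15, adjusted p = 0.708). The groups overlapped in both. *Rpsa*, a small-subunit protein also known as the laminin receptor, had 147, 169 and 149 RPKM against 125, 139.8 and 149 (0.17 ± 0.13, adjusted p = 0.371).

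The most abundant members by the mean over their lines were *Rps29*, *Rpl41*, *Rpl37a*, *Rplp1* and *Rpl12*. These means include lines of copies of a gene, described below, and are not a ranking of mRNA levels. On RefSeq mRNA lines, *Rpl41* and *Rplp1* had means of 849 and 326 RPKM. *Rps29*, *Rpl37a* and *Rpl12* had 0.821, 3.07 and 0.622 on such lines. *Rps29* had 464, 531 and 466 RPKM in *Ctcflos* KD and 396, 470.1 and 461 in the controls (0.14 ± 0.14, adjusted p = 0.478). *Rpl41*, which codes for the shortest of these proteins, had 409, 486 and 427 RPKM against 440.2, 454 and 503 (-0.08 ± 0.14, adjusted p = 0.682). *Rpl37a* had 243, 302 and 254 RPKM against 232, 261 and 270.4 (0.06 ± 0.14, adjusted p = 0.765), and *Rpl12* had 188, 261 and 220.1 against 167, 216 and 209 (0.17 ± 0.17, adjusted p = 0.481). The groups overlapped in each of these, and 0 were called. *Rpl5* and *Rpl11*, which enter the large subunit with the 5S rRNA, differed in sign. *Rpl5* had 90.7, 138 and 105 RPKM against 85.6, 94.9 and 96.0 (0.25 ± 0.17, adjusted p = 0.310), and *Rpl11* had 44.4, 68.3 and 61.5 against 50.9, 61.4 and 61.1 (-0.01 ± 0.18, adjusted p = 0.971). A difference between these genes was not tested, and their RefSeq mRNA lines had means of 5.77 RPKM (*Rpl5*) and 0.0359 RPKM (*Rpl11*).

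The paralogues, which replace a ribosomal protein in some tissues or act outside the ribosome, had a median difference of -0.03 over the 6 that were tested, 3 of them positive, and 0 were called. *Rpl39l* had 16.4, 18.3 and 19.3 RPKM in *Ctcflos* KD and 19.0, 20.05 and 20.4 in the controls (-0.13 ± 0.11, adjusted p = 0.400), beside 126, 152 and 128 against 122, 129 and 134 for *Rpl39*. *Rpl7l1* had 13.2, 15.9 and 17.1 RPKM against 15.8, 17.2 and 17.1 (-0.12 ± 0.12, adjusted p = 0.509), while its partner *Rpl7* had 55.6, 64.7 and 55.8 against 43.9, 50.7 and 49.3 without overlap (0.29 ± 0.13, adjusted p = 0.134). *Rpl22l1* had 17.3 to 21.1 RPKM in *Ctcflos* KD and 17.3 to 19.0 in the controls (0.02 ± 0.12), and *Rpl22* had 30.7 to 39.5 against 26.1 to 32.8 (0.19 ± 0.14). The groups overlapped in all of these but *Rpl7*. *Rpl36al*, whose mRNA shares 59.0% of its words of 100 bases with other genes, had 46.8 to 64.9 RPKM against 55.9 to 61.4 (-0.07 ± 0.15). *Rps27l*, known as a target of p53, had 24.99, 22.0 and 30.7 RPKM in *Ctcflos* KD and 46.2, 20.8 and 16.9 in the controls (0.01 ± 0.33, adjusted p = 0.983). The controls had an SD of 15.9 RPKM around a mean of 28.0, and NC ctrl 1 alone was high. Its partner *Rps27* had 74.0 to 109 against 78.6 to 93.1 (0.05 ± 0.17).

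*Rps4y2* had 36.6, 32.0 and 22.1 RPKM in *Ctcflos* KD and 24.8, 20.3 and 24.2 in the controls (0.35 ± 0.19, adjusted p = 0.211), and *Rps4x* had 93.5, 102 and 87.6 against 73.8, 75.8 and 76.8 without overlap (0.32 ± 0.12, adjusted p = 0.0899). Gencode vM21 names the locus of *Rps4y2* *Rps4l* and classes it as a transcribed processed pseudogene on chromosome 6. It gives a line of *Rps12l2* to *Rps12-ps24* on chromosome 8, which it classes as a processed pseudogene. Of the paralogues under the filter, *Rpl10l* was listed at 0 in all 6 libraries, *Rpl3l* had at most 0.0747 RPKM in any library, and *Rps12l2* was listed at 0 in *Ctcflos* KD 1 and 2, with 0.0424 RPKM in *Ctcflos* KD 3 and 0.0819 to 0.195 in the controls. *Rpl10*, the partner of *Rpl10l*, had 1.13 to 1.74 RPKM against 1.36 to 1.81 (-0.08 ± 0.13). *Rpl3*, the partner of *Rpl3l*, had 142 to 194 against 141 to 168 (0.10 ± 0.16). *Rps19bp1* had 5.22, 5.24 and 5.39 RPKM against 4.44, 5.11 and 4.77, without overlap (0.12 ± 0.09, adjusted p = 0.350).

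The levels of different members cannot be compared as mRNA levels, because for many of them the highest values in the table stand on lines of copies of the gene. Among the 731 lines of members, 348 are GenBank sequences, whose place was not looked up, and 279 are Ensembl transcripts. Gencode vM21 places 34 of these, from 31 symbols, on a single-exon gene under another name. Of the 34, 31 lie in genes classed as pseudogenes. Lines of *Rps4y2* and *Rps12l2* are counted here as copies. Gencode holds no protein-coding gene under these symbols, so that these lines may be the gene itself. In 24 of the 34 lines, from 23 symbols, the mean was at least 1 RPKM. In 19 of the 22 such symbols with a RefSeq mRNA line, the copy had more RPKM than the mean of the RefSeq lines. For *Rps23* the copies *Rps23-ps1* (chromosome 3, 37714740 to 37715164) and *Gm9701* (chromosome 3, 62923807 to 62924233) had means of 325 and 280.0 RPKM, against 0.221 on the RefSeq line of *Rps23*. For *Rpl12* the copy *Gm10275* on chromosome 10 had 510.4 RPKM against 0.622, and for *Rpl9* the copy *Rpl9-ps6* on chromosome 19 had 222 against 0.0243. The reverse held for *Rpl41* (64.9 on the copy against 849), *Rps18* (9.13 against 67.7) and *Rpl15* (5.40 against 16.2). Some GenBank lines also had nearly the values of a copy, and they enter the gene means. For *Rpl12* a GenBank line had 455, 631 and 533 RPKM in *Ctcflos* KD 1 to 3, against 456, 633 and 533 on *Gm10275*.

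**Figure D4:**
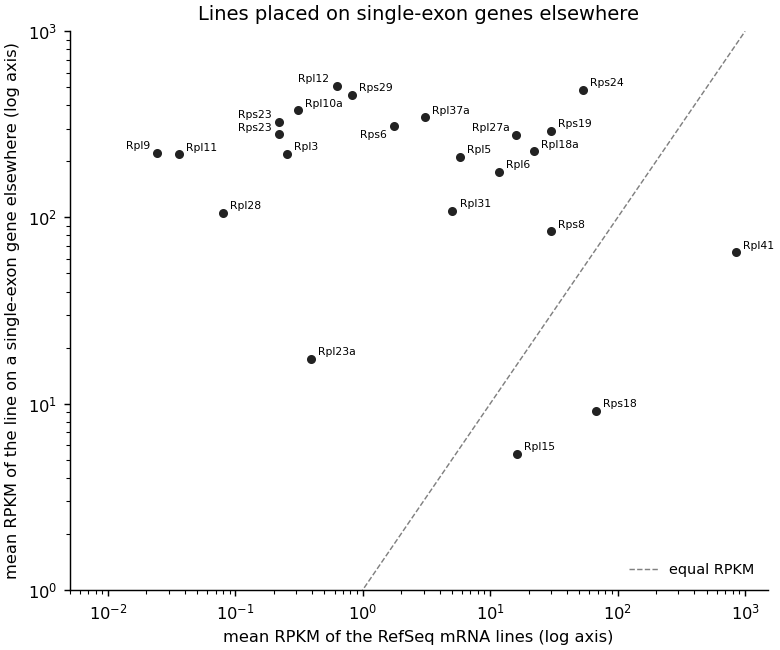
Mean RPKM over the 6 libraries of 23 member lines on single-exon genes at another locus, against the mean RPKM of the RefSeq mRNA lines of the same symbol, both on log axes, with a dashed line at equal values. All points but those of *Rpl41*, *Rps18* and *Rpl15* lie above that line.

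RefSeq mRNA lines were present for 85 members and had a mean under 1 RPKM in 28 of them, 15 of which entered the test through other lines. Across the 85 members, the share of words of 100 bases that the RefSeq transcript has in common with transcripts of other genes was negatively related to the RPKM of the RefSeq lines (Spearman's rho = -0.41, across genes that share libraries and a description only). The 15 members under the filter were *Rpl17*, *Rpl27*, *Rpl34*, *Rpl36*, *Rpl38*, *Rps3a1*, *Rps7*, *Rps10*, *Rps12*, *Rps13*, *Rps16* and *Rps21* and the paralogues *Rpl10l*, *Rpl3l* and *Rps12l2*. *Rpl38* had at most 0.0156 RPKM in any library, while *Rpl37a* had over 200, although a ribosome holds both proteins. Of the 12 ribosomal protein genes under the filter, 5 (*Rpl27*, *Rpl34*, *Rps12*, *Rps13* and *Rps16*) had every KD library above every control at these low values, for example *Rps13* with 1.01, 0.983 and 0.729 RPKM against 0.455, 0.619 and 0.460. Among 26634 genes with a mean above 0 and under 1 RPKM, many of them close to 0, this was so in 11.8%.

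The RPKM on copies also differed between libraries. Over the 24 lines on copies with at least 1 RPKM, *Ctcflos* KD 1 deviated by a median of -0.22 from the mean of the 6 libraries, and by 0.06 over the 64 RefSeq mRNA lines tested. *Ctcflos* KD 1 was the lowest of the 3 KD libraries in 19 of the 24 lines and the lowest of all 6 libraries in 11. For *Rpl23a*, the copy *Gm10132* on chromosome 14 had 5.98 RPKM in *Ctcflos* KD 1 and 17.9 to 21.4 in the other libraries. For *Rpl15*, *Rpl15-ps3* had 2.11 against 4.98 to 7.73, and for *Rpl41*, *Gm10076* had 24.8 against 65.8 to 84.1. The differences of these copies were -0.44 ± 0.38, -0.16 ± 0.33 and -0.63 ± 0.34, none of which passed the test. On own-locus lines, without the copies, the difference was 0.19 for *Rpl23a*, -0.16 for *Rpl15* and -0.06 for *Rpl41*. In 23 tested members that share at least 50% of their words with other genes, *Ctcflos* KD 1 lay below the mean of *Ctcflos* KD 2 and 3 by a median log2 difference of -0.31, and in 22 members that share under 20% by -0.05. The median difference between groups was 0.13 in the former and 0.18 in the latter. The KD libraries lay above all controls in 4 of the 23 and in 10 of the 22, and in 4 of the 26 members between these limits, beside 22.9% of all genes tested.

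When each gene value was taken only from RefSeq mRNA lines and from Ensembl lines at the gene's own locus, a choice made after seeing the data, 63 members could be tested. Of these, 57 differences were positive and 6 were called higher, with a median of 0.19 against 0.02 over 8983 genes. The share called higher was 9.52%, beside 13.9% of all genes in this fit. The Ensembl lines include transcripts that keep an intron, so that this measure does not stand for spliced mRNA alone. The genes called higher were *Rpl5*, *Rpl12*, *Rpl13a*, *Rpl27*, *Rpl30* and *Rpl4*, and 0 were called lower. *Rpl5* had 4.15, 4.65 and 3.48 RPKM by this measure in *Ctcflos* KD and 2.29, 2.67 and 2.42 in the controls (0.55 ± 0.11, adjusted p = 0.0104). *Rpl12* had 3.25, 3.16 and 2.88 against 1.399, 2.33 and 1.31 (0.63 ± 0.14, adjusted p = 0.0163). By the mean over all lines, the groups of both overlapped. *Rpl27a* was positive by this measure (0.21, adjusted p = 0.168) and *Rpl23a* as well (0.19, adjusted p = 0.219). On RefSeq mRNA lines alone, 4 of 57 tested members were called higher (*Rpl13a*, *Rpl5*, *Rps15a* and *Rpl4*), a share of 7.02% beside 14% of 9343 genes in that fit, with a median of 0.16. In that fit *Rpl30* had a difference of 0.07 (limma, adjusted p = 0.733) and *Rpl27a* one of -0.21 (adjusted p = 0.296). *Rpl12* and *Rpl27* were not tested there, with RefSeq means of 0.622 and 0.118 RPKM.

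Single transcript lines were fitted as well, a step also added after seeing the data. Of 514 tested lines of members, 36 were called higher (7.00%) and 0 lower, against 11.3% higher and 14.7% lower among 67403 lines of all genes. The 36 lines belong to 15 genes, led by *Rpl13a* with 7, *Rpl4* with 6 and *Rpl12* with 4. Lines of 1 gene overlap and share reads, so that these counts are not independent. At an unadjusted p under 0.05 there were 108 lines of members higher (21.0%) and 0 lower (limma), beside 19.4% higher and 20.9% lower among lines of all genes. Of the 24 tested lines on copies, 0 were called and 0 had an unadjusted p under 0.05. Retained-intron lines, Ensembl transcripts that keep an intron of the gene, were called higher in 10 of 67 (14.9%), against 9.78% of 3843 retained-intron lines of all genes, and 0 were called lower. Their median difference was 0.27, against 0.04 over all retained-intron lines. The 10 lines belong to 6 genes (*Rpl5*, *Rpl12*, *Rpl21*, *Rpl27a*, *Rpl30* and *Rps28*).

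The highest of these was a line of *Rpl27a* at 109519199 to 109520179 on chromosome 7 (GRCm38, plus strand), whose exonic sequence of 350 bases overlaps *Snora3*. It had 6.66, 7.00 and 4.18 RPKM in *Ctcflos* KD and 1.21, 1.41 and 0.454 in the controls, and rose by 1.79 ± 0.22 (adjusted p = 0.00274). The RefSeq mRNA line of *Rpl27a* had 12.2, 16.3 and 16.1 RPKM against 15.03, 18.3 and 18.5, so that the mRNA line was not higher. *Rpl27a* was the only member called for a change in the relative use of its lines (diffSplice, adjusted p = 2e-05), in a background of 0.658% of 10027 genes. Its 11 tested lines include ones with the values of the copy *Gm7536* on chromosome 3.

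For *Rpl12*, 3 retained-intron lines that all overlap *Snora65* rose by 0.99 ± 0.20, 0.95 ± 0.17 and 0.92 ± 0.28. The first of them had 8.33, 8.28 and 6.64 RPKM in *Ctcflos* KD and 2.86, 5.08 and 2.59 in the controls, and NC ctrl 2 stood nearest to the KD libraries. A line of *Rpl21* over the snoRNA gene *Gm25091* had 1.91, 2.88 and 1.30 RPKM against 0.667, 0.868 and 0.374 (0.87 ± 0.19, adjusted p = 0.0155). For *Rpl30*, a line over *Gm24523* had 4.78, 5.15 and 4.70 RPKM against 2.07, 3.15 and 2.58 (0.72 ± 0.13, adjusted p = 0.00716), and for *Rpl5* a line over *Snord21* had 5.94, 6.05 and 5.30 against 3.31, 3.65 and 3.12 (0.63 ± 0.10, adjusted p = 0.00564). None of these groups overlapped. Another line each of *Rpl30* (0.70 ± 0.11) and *Rpl5* (0.60 ± 0.11) and a line of *Rps28* (0.53 ± 0.16) rose without an annotated snoRNA in their sequence.

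**Figure D5:**
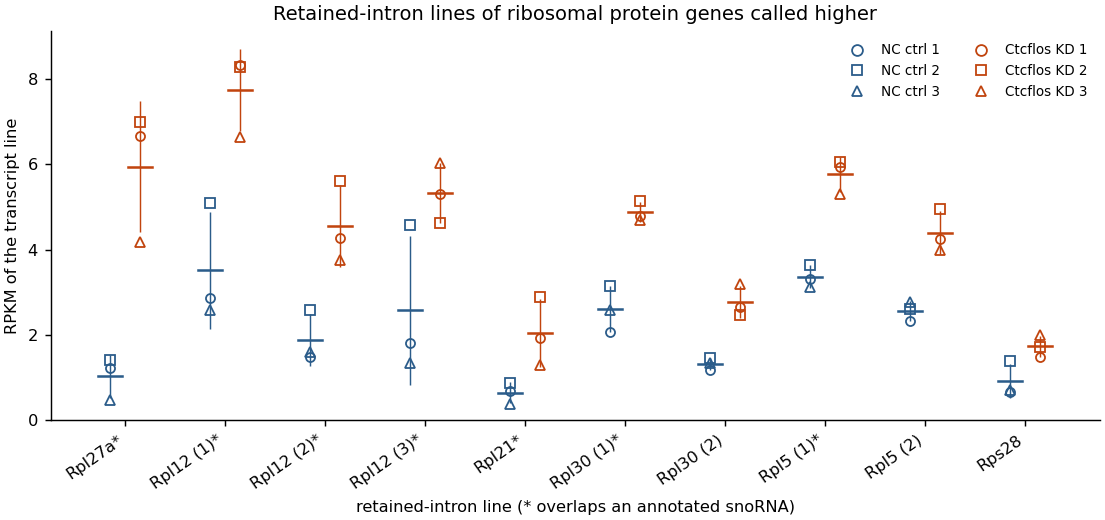
RPKM in each library of the 10 retained-intron lines of members that were called higher in *Ctcflos* KD, with group means and SD (n = 3); an asterisk marks lines that overlap an annotated snoRNA. The groups do not overlap in any line, and the line of *Rpl27a* shows the highest difference (1.79 on the log2 scale).

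Of the 14 tested retained-intron lines of members that overlap a snoRNA, 7 were called higher, 3 of them from *Rpl12*. Among all 57 tested retained-intron lines over a snoRNA, those of members included, 57.9% were called higher, so that the count of members is not above this background. The values do not tell reads of the snoRNA from reads of the intron around it, and values of the snoRNAs themselves were not analysed here. At the gene level, the 25 tested members with a snoRNA had a median difference of 0.17 and 22 positive values, and the 46 without one had 0.14 and 37. By the sequence at the annotated start, the median was 0.12 in 24 members with a run of at least 8 pyrimidines and 0.14 in 29 with a shorter one. Gene length was read beside this. Over 2543 tested genes that span under 10 kb the median was 0.08, and over the 67 tested members of that size it was 0.15.

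Beside the members, genes from lists of related function were read from the same fit. Among ribosomal proteins outside the rule, *Fau* had 64.8, 85.2 and 60.6 RPKM in *Ctcflos* KD and 64.2, 63.5 and 79.6 in the controls (0.02 ± 0.17), and *Rack1* had 101, 114 and 85.0 against 70.7, 82.9 and 82.6 (0.33 ± 0.15, adjusted p = 0.137). Neither was called by limma, and 0 had an unadjusted p under 0.05. Among 17 other genes whose mRNAs are known to carry TOP tracts, most but not all of them translation factors, 3 were called higher and 0 lower, beside 11.5% and 12.4% of all genes. They were *Npm1*, a nucleolar chaperone of ribosome assembly (55.7 ± 5.04 against 33.8 ± 2.10 RPKM, SD, n = 3 each, log2 difference 0.70), *Nap1l1*, a histone chaperone (52.4 ± 9.21 against 19.4 ± 2.00, 1.38), and the initiation factor *Eif4b* (33.9 ± 3.80 against 25.4 ± 1.08, 0.40). The median of this list was 0.19.

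Of 14 chaperones and importins of ribosomal proteins, 6 were called higher and 0 lower, with a median of 0.36, beside the background of 11.5% called higher. The list was chosen with results of these libraries known. *Tsr2*, the chaperone of *Rps26*, rose by 0.46 (5.17 ± 0.65 against 3.48 ± 0.35 RPKM, SD, n = 3 each), beside the lower values of *Rps26* itself. *Pdcd2*, the chaperone of *Rps2*, rose by 1.00 (7.57 ± 2.86 against 3.09 ± 0.23), and *Ltv1*, which helps to load *Rps3* onto the small subunit, by 0.47. The importins *Ipo5* and *Ipo7*, which carry ribosomal proteins into the nucleus, rose by 0.66 and 0.44. The sixth was *Nap1l1*, which also stands in the list of TOP mRNAs. In a list of 18 genes that control TOP mRNAs, 17 were tested. Of these, 2 were called higher and 2 lower, beside 11.5% higher and 12.4% lower among all genes. *Mtor* fell by 0.45 (1.11 ± 0.16 against 1.89 ± 0.29 RPKM) and *Tsc1*, an inhibitor of the mTOR pathway, by 0.37, while the cap-binding factor *Eif4e* rose by 0.39 and *Myc*, an activator of ribosomal protein genes, by 0.80. Of 15 tested genes of ribosome quality control, 1 was called higher and 1 lower, beside the same shares of all genes. *Abce1*, which splits ribosomes, rose by 0.43, and *Gtpbp1* fell by 1.07. Of 3 tested ribosomal protein kinases 0 were called by limma, and 1 had an unadjusted p under 0.05.

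The mitochondrial ribosomal proteins, encoded by nuclear genes and part of a separate ribosome, had mostly negative differences. Of 75 tested, 50 were negative, with a median of -0.09. Of these 75, 4 were called lower and 1 higher, beside 12.4% lower and 11.5% higher among all genes tested. *Mrps9* (2.16, 2.25 and 2.94 RPKM in *Ctcflos* KD against 4.38, 4.33 and 4.79) and *Mrpl10* (8.53, 9.32 and 10.6 against 15.4, 13.8 and 16.7) fell by 0.68 and 0.64. *Mrps27* and *Mrpl48* fell by 0.60 and 0.39, and *Mrps30* rose by 0.51. The difference between the cytosolic and the mitochondrial group was not tested, and the medians stand side by side as a description.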

How the data were processed

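Total RNA of 6 libraries was prepared with the TruSeq Stranded Total RNA kit and sequenced in paired-end reads. For splicing, the study's methods give alignment with STAR to GRCm38 and annotation with Gencode vM21. How the expression table was made is not given in the sources used here. The authors deposited a table of other values, namely RPKM written with decimal commas, in 168326 lines for RefSeq, Ensembl and GenBank transcripts. Overlapping lines share reads, and use of the strand in counting is not stated, so that overlapping and antisense genes are uncertain. Depth was recovered from Ensembl lines with a Gencode length: between 97.7% and 98.4% of low values lay within 0.1 of a whole number of reads. Each library has 60.7 to 78.9 mio reads, so that 1 RPKM on a transcript of 1 kb stands for 60.7 to 78.9 reads. Because RPKM depend on transcript length, no count test was used.

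After 305 exact repeats were removed, the value of a gene was the mean RPKM over its lines. Genes with a mean of at least 1 RPKM were tested on log2(RPKM + 1) with limma-trend (R 4.3.3, limma 3.58.1), two-sided, with Benjamini-Hochberg adjustment over all genes and a threshold of 0.05. Relative use of lines was tested with diffSplice. Tables were made with Python 3.11.15, pandas 2.3.3 and numpy 2.4.6. All fits were tested on simulated data. Lines were matched to Gencode vM21 by Ensembl identifier, and promoters come from the RefSeq table for GRCm38.p6. The members and lists were chosen with earlier results of these data known. Members given with all values were the 6 highest and 6 lowest differences, the 5 most abundant, the stalk proteins and *Rpsa*, *Rpl5* and *Rpl11*, paralogues with their partners, and members called for use of lines. *Rps15a*, *Rps23* and other members named for their lines were chosen after their values were seen. Alternatives were a pseudocount of 0.1, no filter, median of ratios scaling, the replicate number as a block, RefSeq mRNA lines alone, the median over lines and leaving out each library. Own-locus lines and the fits of single lines were added after seeing the data.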

Additional observations from a re-analysis of the deposited data

How the results depend on the processing

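The main count was 1 member called higher and 0 lower. The count higher was 0 without a filter on low values and with the replicate number as a block. It was 4 on RefSeq mRNA lines alone, 3 with the median over lines and 6 on own-locus lines. The 3 with the median over lines were *Rpl5*, *Rpl12* and *Rpl30*, and *Rpl13a* was not among them. Leaving out 1 library gave 0 to 12, with 12 without *Ctcflos* KD 3 and 0 without each of the others. The count lower was 0 under each of these alternatives. The median difference stayed positive under each alternative, between 0.09 and 0.21. Deviations from the group means of same-numbered libraries correlated by 0.287, -0.288 and -0.418 over all genes tested. Over the members they correlated by 0.127, 0.228 and -0.332. The libraries numbered 3 had the lowest depth of both groups, 60.7 and 61.9 mio reads beside 74.1 to 78.9 in the others. Whether same-numbered libraries were handled together cannot be told from these values. The block left the median at 0.16 and lowered the calls to 0 for members, and member lines from 36 to 23. Lines called higher were 22 without a filter, and 9 to 130 when 1 library was left out, the highest without *Ctcflos* KD 3 and the lowest without NC ctrl 1. Lines called lower were 2 without a filter and 0 to 3 when 1 library was left out. Retained-intron lines called higher were 6 to 23 when 1 library was left out. For relative use of lines, 2 members were called with a pseudocount of 0.1 and 2 without a filter. For *Ctcflos* itself, the block gave -0.66 (adjusted p = 0.113), and leaving out 1 library gave -0.72 to -0.63, with the call kept only without *Ctcflos* KD 3.

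Among the members named with all values, some small differences changed sign. Leaving out 1 library gave -0.15 to 0.032 for *Rpl10*, -0.14 to 0.17 for *Rpl11*, -0.31 to 0.10 for *Rpl15*, -0.064 to 0.073 for *Rpl22l1*, -0.53 to 0.13 for *Rpl23a* and -0.30 to 0.11 for *Rpl27a*. It gave -0.0038 to 0.22 for *Rpl3*, -0.18 to 0.052 for *Rpl36al*, -0.030 to 0.13 for *Rpl37a*, -0.011 to 0.12 for *Rpl39*, -0.013 to 0.21 for *Rplp2*, -0.075 to 0.20 for *Rps27* and -0.27 to 0.43 for *Rps27l*. With median of ratios scaling *Rpl22l1* was at -0.0060 and *Rps27l* at -0.016. The median over lines gave 0.23 for *Rpl23a*, and own-locus lines gave 0.080 for *Rpl10*, 0.19 for *Rpl23a* and 0.21 for *Rpl27a*. None of these reversed values passed the test, and the cause was not tested. A further limit is that values of a gene and of its copies cannot be separated by RPKM alone. With 3 libraries a group, an exact permutation test of 1 gene cannot go below p = 0.1.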

Other observations

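On lines of copies, *Ctcflos* KD 1 often held the lowest or the highest value. While *Ctcflos* KD 1 was low on the copies with at least 1 RPKM, it was the highest of all 6 libraries in 6 of the 10 lines on copies under 1 RPKM. The copy *Gm15710* of *Rpl13* on chromosome 5 had 2.19 RPKM in *Ctcflos* KD 1 and 0.105 to 0.159 in the other libraries. *Gm13841*, a copy of *Rpl29* on chromosome 5, had 0.987 RPKM there and 0.0681 to 0.358 elsewhere, and *Rps18-ps3* on chromosome 8 had 1.10 RPKM against 0.381 to 0.701. Over all 968 tested lines on single-exon genes under another name, the median deviation was -0.08 in *Ctcflos* KD 1, 0.18 in *Ctcflos* KD 2 and -0.08 in NC ctrl 1, which include the 24 lines of members. What set this library apart was not tested.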
